A study of Mus musculus with 18 samples.

Results

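The metallothioneins *Mt1* and *Mt2*, the zinc exporter *Slc30a1*, the zinc importer *Slc39a14* and the zinc sensor *Mtf1* were followed in RNA-seq data from bone marrow-derived macrophages (BMDMs). These 5 genes were chosen by name as rows of the deposited table of 20615 genes, with earlier results of the same samples known, so their values are given as a description and without a test. All 5 had a row and passed the filter on low counts, which left 15789 genes. The table covered 18 samples in 6 groups of 3. BMDMs of C57BL/6 mice (B6) and of C57BL/6.NOD-Aec1Aec2 mice (SjSS), a model of Sjögren's syndrome in which the *Idd3* (*Aec1*) and *Idd5* (*Aec2*) intervals of the NOD mouse were bred onto the B6 background, received no treatment (control), apoptotic cells (ACs) or CpG. The study asked how the BMDMs of either strain respond to ACs, with CpG as a second inflammatory stimulus.

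All groups shared the culture. Marrow came from femur and tibia of mice aged 7 to 12 weeks, the cells matured in medium with L929 supernatant as the source of M-CSF, and 300000 cells were plated per well. The ACs were thymocytes killed with dexamethasone, a glucocorticoid. They were given at 5 per BMDM for 2 h and washed off, and the labels give a further 3 h of culture, for which the methods of the paper state a longer time. CpG was used at 1 µM for 6 h. The sources used here give neither the strain of the thymocytes for each sample nor whether equal sample numbers in different groups mark 1 mouse. The 3 samples of a group came from 3 mice. Defining macrophage genes (*Adgre1*, *Csf1r*, *Itgam*, *Cd68*, *Lyz2*) were present in every group, and the 8 macrophage markers summed to between 15317 and 22944 CPM, the reads of a gene as a share of the scaled library total, in each sample. The totals over genes ran from 30688336 to 57139662 per sample. The lowest count of any of the 5 genes in any sample was 413 reads, for *Mt2* in 1 control SjSS sample. Library totals for CPM are scaled by TMM, edgeR's correction for differences in library composition, and TMM factors were lowest in the AC treated SjSS samples, at 0.833 to 0.838, within a range over all samples of 0.833 to 1.13.

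Metallothioneins are small cysteine-rich proteins that bind zinc and copper and buffer free zinc in the cytoplasm. When free zinc rises, MTF-1, the zinc finger protein encoded by *Mtf1*, binds metal response elements (MREs) in promoters and switches on *Mt1*, *Mt2* and *Slc30a1*, whose protein ZnT1 carries zinc out of the cell. ZIP14, the product of *Slc39a14*, carries zinc into the cell, and in macrophages and liver its gene is known to respond to inflammatory signals. Glucocorticoids and oxidative stress are also known inducers of the metallothionein genes.

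The metallothioneins were the members with the highest levels after AC treatment of B6 BMDMs. *Mt1* stood at 126, 107 and 103 CPM in the 3 control B6 samples and at 385, 319 and 321 CPM in the 3 AC treated B6 samples. In SjSS BMDMs it stood at 77.0, 84.2 and 85.7 CPM in the controls and at 244, 263 and 243 CPM with ACs. The AC samples of each strain were all above the controls of both strains, and every AC treated SjSS sample lay below every AC treated B6 sample. The log2 fold change of *Mt1* with ACs was 1.61 ± 0.11 (SE, n = 3 against 3) in B6 and 1.61 ± 0.11 in SjSS BMDMs. The SjSS response minus the B6 response was 0.00 ± 0.16 on the log2 scale. As in any bulk sample, fewer cells that express a gene and less of its RNA per cell cannot be told apart in these values.

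*Mt2* had lower levels without treatment and larger differences with ACs. Its levels were 29.2, 21.9 and 20.2 CPM in control B6 and 268, 210 and 217 CPM in AC treated B6 BMDMs. The SjSS samples gave 13.1, 12.2 and 14.01 CPM without treatment and 134, 140 and 136 CPM with ACs. The groups did not overlap in either strain, with log2 fold changes of 3.28 ± 0.19 (a 9.71-fold difference) in B6 and 3.38 ± 0.19 (10.4-fold) in SjSS BMDMs. SjSS samples held less *Mt2* than B6 samples before treatment, by a log2 difference of -0.86 ± 0.19, and with ACs, by -0.76 ± 0.17, and the samples of the strains did not overlap in either condition.

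**Figure D1:**
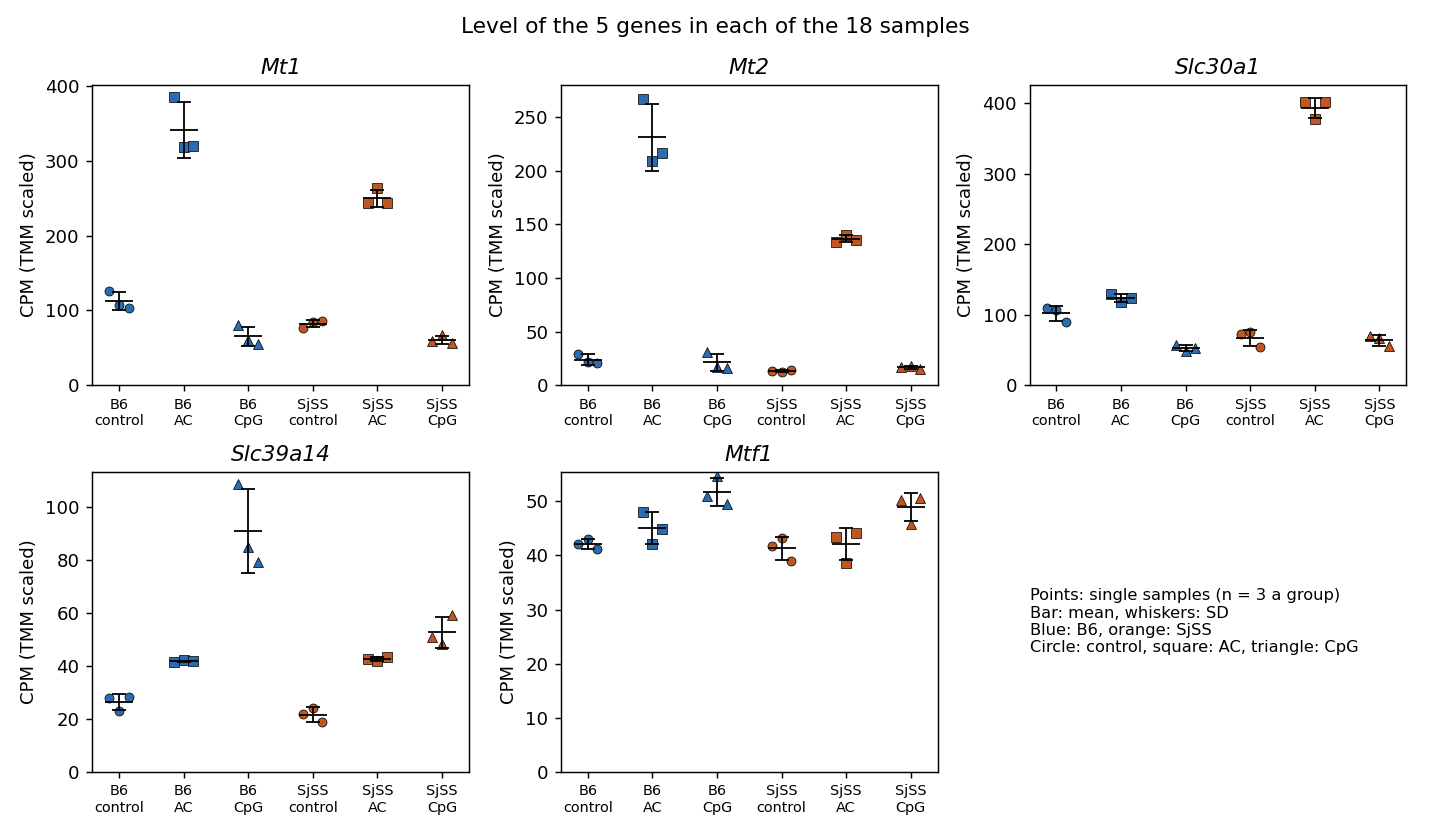
Level of each of the 5 genes (y axis, TMM scaled CPM from 0, each panel with its own scale) in the 6 groups (x axis), with points for the 3 samples, a bar for the mean and whiskers for the SD. *Mt1* and *Mt2* are highest in AC treated B6 BMDMs, *Slc30a1* is highest in AC treated SjSS BMDMs at 378 to 402 CPM, and *Slc39a14* is highest in CpG treated B6 BMDMs.

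With CpG neither metallothionein had a level like that with ACs. *Mt1* was lower with CpG than without, at 80.1, 59.7 and 55.5 CPM in B6 and 58.5, 66.7 and 56.2 CPM in SjSS BMDMs, and the samples did not overlap with the controls of the strain. The log2 fold changes were -0.78 ± 0.11 in B6 and -0.44 ± 0.11 in SjSS. *Mt2* was at 30.6, 16.6 and 16.3 CPM in CpG treated B6 BMDMs, which overlapped the controls, and at 16.95, 17.5 and 15.1 CPM in CpG treated SjSS BMDMs, all above the SjSS controls. Its log2 fold changes, -0.17 ± 0.18 in B6 and 0.33 ± 0.19 in SjSS, were each less than 2 SE from 0. The first CpG treated B6 sample had the highest level of both genes in its group. Without it the CpG log2 fold changes in B6 were -0.96 for *Mt1* and -0.54 for *Mt2*. The *Mt2* value turned to 0.01 without the first control B6 sample or without the third CpG treated one.

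The balance between the 2 metallothioneins differed between treatments. *Mt2* made up 17.4% ± 1.28 (SD, n = 3) of the reads on both genes in control B6, 40.3% ± 0.68 in AC treated B6 and 24.0% ± 3.18 in CpG treated B6 BMDMs. In SjSS BMDMs the shares were 13.7% ± 0.958, 35.3% ± 0.536 and 21.5% ± 0.889 in the same order. The *Mt2* share was higher with ACs than with CpG, and higher with CpG than without treatment, in every sample of either strain. *Mt1* and *Mt2* are alike in sequence, and the counting by estimation could divide reads between them, so the split is uncertain.

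**Figure D2:**
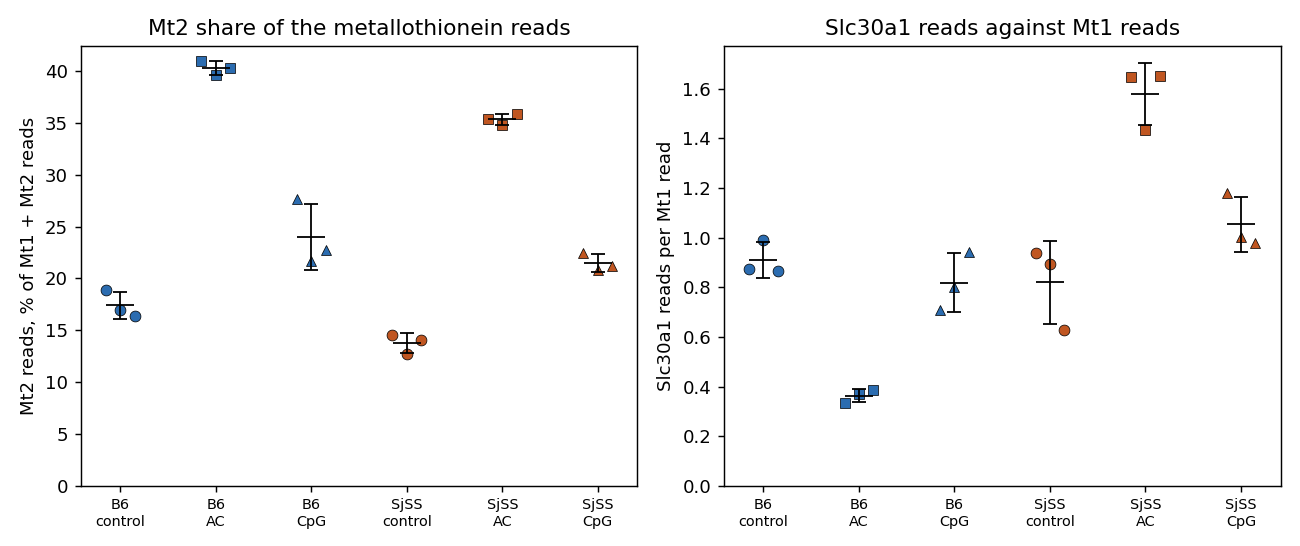
Left, *Mt2* reads as a percentage of the reads on *Mt1* and *Mt2*, and right, *Slc30a1* reads per *Mt1* read (y axes from 0), in the 3 samples of each group, with the mean and SD. The *Mt2* share is highest with ACs, at 40.3% in B6 and 35.3% in SjSS BMDMs, while *Slc30a1* reads per *Mt1* read were 0.364 in AC treated B6 and 1.58 in AC treated SjSS BMDMs.

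*Mt1* and *Mt2* are neighbours on the plus strand of chromosome 8 (mm10), with *Mt2* at chr8:94172664-94173569 and *Mt1* at chr8:94179082-94180328, and 5513 bp lie between the end of *Mt2* and the start of *Mt1*. *Slc30a1* is at chr1:191906767-191913248 on the plus strand, *Mtf1* at chr4:124802104-124849801 on the plus strand and *Slc39a14* at chr14:70303469-70351426 on the minus strand, all as whole gene spans of the deposited table. The promoters of the 3 genes that are known MTF-1 targets are shown because their levels were higher with ACs, as the 250 bases before the RefSeq transcript start on GRCm38.p6 (mm10), plus strand, 5′ to 3′. Capitals mark matches to the MRE core, spelled TGCACNC or TGCGCNC and searched on both strands, so that a match on the other strand appears as its reverse complement.
Mt2 (chr8:94172368-94172617): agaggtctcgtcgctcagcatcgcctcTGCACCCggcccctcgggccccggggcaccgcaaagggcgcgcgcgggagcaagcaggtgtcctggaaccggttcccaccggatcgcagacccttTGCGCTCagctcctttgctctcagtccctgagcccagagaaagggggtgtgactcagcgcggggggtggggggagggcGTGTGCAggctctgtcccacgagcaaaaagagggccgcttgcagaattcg
Mt1 (chr8:94178839-94179088): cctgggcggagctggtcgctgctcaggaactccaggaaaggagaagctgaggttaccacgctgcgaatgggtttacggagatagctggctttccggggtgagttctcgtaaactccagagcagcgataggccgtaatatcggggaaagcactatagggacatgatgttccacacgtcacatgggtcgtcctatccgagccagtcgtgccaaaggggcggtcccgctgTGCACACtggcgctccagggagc
Slc30a1 (chr1:191906531-191906780): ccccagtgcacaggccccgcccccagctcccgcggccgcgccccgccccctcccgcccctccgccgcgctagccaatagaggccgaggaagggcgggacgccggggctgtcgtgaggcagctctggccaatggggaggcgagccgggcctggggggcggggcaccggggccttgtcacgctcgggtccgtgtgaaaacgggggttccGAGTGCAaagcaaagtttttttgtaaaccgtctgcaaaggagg
In the window of 300 bases that adds the first 50 transcribed bases, *Mt2* held 4 MRE matches, *Mt1* held 3 and *Slc30a1* held 2. Of these, 3, 1 and 1 lay in the printed bases and 1, 2 and 1 after the start. The RefSeq starts differ from the starts of the gene spans above, and the bases printed for *Mt1* and *Slc30a1* run into those spans. Of 32851 promoters of this length in the RefSeq table, 0.517% held at least 4, 1.97% at least 3 and 7.11% at least 2. The *Mtf1* window held 0, and 25.7% of promoters held at least 1. The antioxidant response element, spelled TGACNNNGC and overlapping no MRE match, was found once each in the *Mt2* and *Slc30a1* windows and in 12.4% of all promoters. RefSeq promoters were matched for 4 of the 5 genes and *Slc39a14* was not among them. These matches describe letters in a window and do not show that a site is bound.

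*Slc30a1* showed the largest difference between strains among the 5 genes. It stood at 110, 106 and 89.4 CPM in control B6 and at 129, 118 and 124 CPM in AC treated B6 BMDMs. SjSS BMDMs held 72.2, 75.3 and 53.8 CPM in the controls and 402, 378 and 402 CPM with ACs. The AC samples lay above the controls in both strains, and every AC treated SjSS sample was above every other sample of the series. The log2 fold change with ACs was 0.28 ± 0.11 (1.21-fold) in B6 and 2.56 ± 0.11 (5.88-fold) in SjSS BMDMs, and the SjSS response minus the B6 response was 2.27 ± 0.15. Without treatment the order of the strains was the opposite, with SjSS BMDMs lower by a log2 difference of -0.60 ± 0.11 and no overlap of samples.

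With CpG, *Slc30a1* was at 56.8, 47.9 and 52.3 CPM in B6 BMDMs, all below the controls, and at 69.0, 67.0 and 54.9 CPM in SjSS BMDMs, which overlapped the controls. The log2 fold changes were -0.96 ± 0.11 in B6 and -0.07 ± 0.11 in SjSS BMDMs, and the difference between these responses was 0.88 ± 0.16. The transcripts of ZnT1 and metallothionein stood in different proportion in the AC groups of the strains. There were 0.364 ± 0.0259 (SD, n = 3) *Slc30a1* reads per *Mt1* read in AC treated B6 BMDMs and 1.58 ± 0.126 in AC treated SjSS BMDMs, while the other 4 groups had means of 0.818 to 1.05.

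Thymocyte RNA was looked at beside these values, since ACs were thymocytes. Of 15 thymocyte markers 13 were in the table, and their sum with ACs was 4.80 to 5.55 CPM in B6 and 14.2 to 18.8 CPM in SjSS BMDMs, against 8.004 to 10.03 CPM and 10.3 to 11.9 CPM in the controls. No marker was at 0 in all AC treated B6 samples, against 3 in control and 3 in CpG treated B6 samples. In SjSS BMDMs 1 was at 0 in all samples of the group with ACs, as in the control and CpG groups. Most of the sum was *Cd4*, whose mean with ACs was 3.57 CPM in B6 and 13.96 CPM in SjSS BMDMs. Without *Cd4*, a split chosen after the values were seen, the other 12 markers summed with ACs to 1.21 to 2.01 CPM in B6 and 1.68 to 2.02 CPM in SjSS BMDMs, all above the controls at 0.272 to 0.709 CPM and 0.503 to 0.810 CPM. With CpG, where no thymocytes were given, this sum was 2.22 to 2.74 CPM in B6 and 1.26 to 1.71 CPM in SjSS BMDMs. Those samples were also all above the controls of their strain. The 3 markers that passed the filter were *Cd4*, *Lck* and *Ccr9*, and *Lck* (2.11 ± 0.47, adjusted p = 0.000803) and *Ccr9* (1.74 ± 0.38, adjusted p = 0.000698) rose with ACs in SjSS BMDMs by edgeR. *Ccr9* also rose with CpG, by 2.82 to 3.47 in B6 and 1.91 to 2.61 in SjSS on the log2 scale over 13 alternatives. *Lck* passed with CpG in 0 of 12 alternatives in either strain. *Rag1* had 24 reads over the 3 AC treated B6 samples, 3 over the 3 AC treated SjSS samples and 0 in the controls, while *Cd3d*, *Cd3e* and *Trac* had 4 to 7 reads over the 3 samples of either AC group. The part of thymocyte RNA in the levels of the 5 genes was not tested.

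*Slc39a14* followed CpG more than ACs. It stood at 27.8, 22.9 and 28.2 CPM in control B6, 41.6, 42.04 and 41.8 CPM in AC treated B6 and 109, 84.8 and 79.3 CPM in CpG treated B6 BMDMs. The SjSS samples gave 21.9, 24.2 and 18.7 CPM in the controls, 42.8, 41.9 and 43.2 CPM with ACs and 50.7, 48.1 and 59.3 CPM with CpG. In both strains all AC samples lay above all controls and all CpG samples above all AC samples. The CpG log2 fold change was 1.79 ± 0.11 (3.45-fold) in B6 and 1.29 ± 0.11 (2.45-fold) in SjSS BMDMs, and the AC log2 fold changes were 0.67 ± 0.11 and 0.99 ± 0.11. CpG treated SjSS samples were all below CpG treated B6 samples, by a log2 difference of -0.79 ± 0.11. The strains overlapped both without treatment and with ACs, where the log2 difference of 0.03 ± 0.11 turned to -0.27 when library totals were used in place of TMM.

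*Mtf1*, the sensor, varied least. Over all 18 samples it ran from 38.6 to 54.7 CPM, and its group means were 42.1 ± 0.943 (SD, n = 3), 45.0 ± 2.93 and 51.8 ± 2.62 CPM in control, AC treated and CpG treated B6 BMDMs and 41.3 ± 2.13, 42.1 ± 3.00 and 48.9 ± 2.64 CPM in the same SjSS groups. CpG samples lay above the controls in both strains, with log2 fold changes of 0.30 ± 0.07 in B6 and 0.25 ± 0.07 in SjSS BMDMs. AC samples overlapped the controls, with log2 fold changes of 0.10 ± 0.07 in B6 and 0.03 ± 0.07 in SjSS BMDMs, the latter -0.39 with library totals, a scaling under which the median gene of that comparison stood at -0.43.

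**Figure D3:**
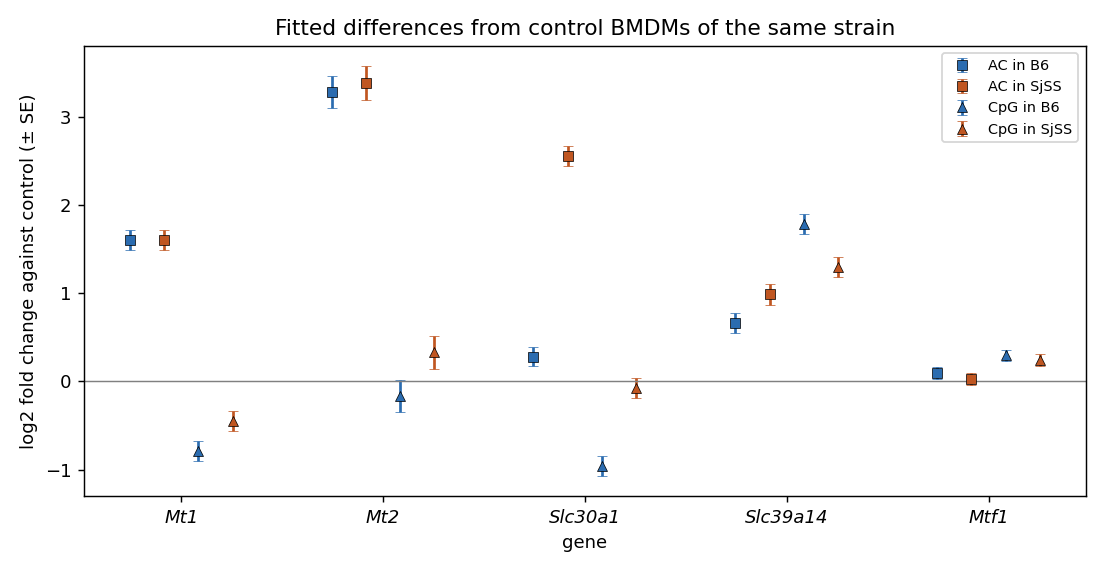
Fitted log2 fold change against control BMDMs of the same strain (y axis, ± SE) for each gene (x axis), with squares for ACs and triangles for CpG, blue for B6 and orange for SjSS. The AC responses of *Mt1* and *Mt2* coincide between strains while those of *Slc30a1* are 0.28 and 2.56, and with library totals in place of TMM the small positive AC value of *Mtf1* in SjSS turns negative.

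Ordered by mean level, *Mt1* ran from AC treated B6, AC treated SjSS and control B6 to control SjSS BMDMs without overlap between neighbours, and control SjSS and both CpG groups then overlapped in turn. For *Mt2* the 2 AC groups stood above the rest, neighbours from control B6 to CpG treated SjSS overlapped, and control SjSS was lowest without overlap. The *Slc30a1* order was AC treated SjSS, AC treated B6, control B6 and control SjSS without overlap, and control SjSS and both CpG groups overlapped in turn. In *Slc39a14* the neighbours that overlapped were the AC groups of the 2 strains and the controls of the 2 strains. All neighbours in the order of *Mtf1* overlapped.

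Levels can be compared between genes only per length, here as mean CPM per kb of the longest RefSeq-linked transcript, which is 549 bases for *Mt1*, 511 for *Mt2*, 7631 for *Mtf1*, 5244 for *Slc30a1* and 4926 for *Slc39a14*. On this scale *Mt1* was highest and *Mt2* was second in each of the 6 group means. *Mt1* stood at 622 ± 68.5 (SD, n = 3) CPM per kb and *Mt2* at 453 ± 61.8 in AC treated B6 BMDMs, against 23.6 ± 1.08 for *Slc30a1*, 8.49 ± 0.0436 for *Slc39a14* and 5.90 ± 0.384 for *Mtf1*. In AC treated SjSS BMDMs *Slc30a1* reached 75.1 ± 2.71 CPM per kb, below 267 ± 6.78 for *Mt2*.

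Counted by the thresholds used for calls (adjusted p under 0.05 by edgeR's quasi-likelihood test and a log2 difference above 1.3 in size), 2 of the 5 genes (*Mt1*, *Mt2*) were past them for ACs in B6, beside 4.47% of all genes tested, and 3 (with *Slc30a1*) for ACs in SjSS, beside 12.9%. With library totals in place of TMM *Mt1* stood at 1.19 in the latter comparison, and 2 were past them. For CpG 1 gene (*Slc39a14*) was past them in B6, beside 12.7%, and 0 in SjSS, beside 9.26%, where *Slc39a14* lay just under the fold limit at 1.29. In that comparison 3 of the 5 had an unadjusted p under 0.05, and DESeq2 called 0. Between the strains 0 were past them without treatment (4 at an unadjusted p under 0.05, 0 by DESeq2), beside 2.01%, 1 (*Slc30a1*) with ACs, beside 8.94%, and 0 with CpG (2 at an unadjusted p under 0.05, 0 by DESeq2), beside 2.61%. The interaction of strain and AC counted 1 (*Slc30a1*), beside 7.52%, and that of strain and CpG 0 (3 at an unadjusted p under 0.05, 0 by DESeq2), beside 0.614%. Since the genes were chosen with these results known, nothing is read from the counts. Samples of the compared groups did not overlap for 4 of the 5 genes with ACs in B6 (49.9% of all genes), with ACs in SjSS (63.9%), with CpG in B6 (61.6%) and with CpG in SjSS (60.5%). Between strains this held for 3 without treatment (34.4%), 3 with ACs (60.7%) and 1 with CpG (34.2%).

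The strains also differed in the sum of markers of stromal cells, which could remain in marrow cultures. By edgeR at any fold, 2 of 5 were higher in SjSS without treatment (19.6% of all genes tested), 3 with ACs (49.4%) and 2 with CpG (19.7%), and 0 were lower. *Col3a1* and *Pdgfrb* passed in 0 of 13 alternatives of each strain comparison. The 5 markers (*Col1a1*, *Col1a2*, *Col3a1*, *Dcn*, *Pdgfrb*) summed to 45.1 to 136 CPM in control B6 and 167 to 232 CPM in control SjSS BMDMs, to 81.4 to 119 and 189 to 237 CPM with ACs and to 41.2 to 102 and 152 to 199 CPM with CpG, and none was at 0 in all samples of a group. The 4 neutrophil markers in the table, of 7 listed, summed to 2.40 to 5.11 CPM in control and AC groups and to 5.58 to 12.7 CPM in CpG groups. Among macrophage markers, *Fcgr1*, an IgG receptor, rose with ACs in SjSS (log2 fold change 1.52 ± 0.11, adjusted p = 6.7e-10 by edgeR). The part of these cells or states in the levels of the 5 genes was not tested.

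Genes that glucocorticoids are known to induce were read beside the metallothioneins, since the ACs had been killed with dexamethasone. Of 10 such genes, adjusted p by edgeR was under 0.05 with ACs for 2 higher and 3 lower in B6, beside 38.3% of all genes tested. In SjSS BMDMs it was under 0.05 for 2 higher and 4 lower, beside 58%. Their summed level was 338 to 358 CPM in control and 388 to 418 CPM in AC treated B6 BMDMs, and 324 to 412 and 429 to 485 CPM in SjSS BMDMs. The largest part of this sum was *Sgk1*, which like *Dusp1* is named after the values were seen. Mean *Sgk1* was 163 CPM in control and 198 CPM in AC treated B6 BMDMs, and 163 and 272 CPM in SjSS BMDMs. Mean *Dusp1* was 44.0 and 65.4 CPM in the same B6 groups and 49.5 and 91.8 CPM in the SjSS groups. *Tsc22d3*, which encodes GILZ, stood at 0.26 ± 0.10 on the log2 scale with ACs in B6 (adjusted p = 0.0471, and under 0.05 in 5 of 13 alternatives), fell with ACs in SjSS BMDMs (-1.24 ± 0.10) and fell with CpG by 2.62 and 1.75 on the log2 scale. *Per1*, a clock gene, fell with ACs in SjSS (-1.35 ± 0.10, adjusted p = 1.45e-09), and *Klf9*, a transcription factor, fell with CpG in B6 (-1.69 ± 0.11, adjusted p = 1.88e-10). Their part in the metallothionein values was not tested.

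The other zinc genes were tested as a list of 24, the remaining metallothioneins and members of the ZnT (*Slc30a*) and ZIP (*Slc39a*) families, of which 17 were in the table and all 17 were tested. ZnT proteins move zinc out of the cytoplasm and ZIP proteins move it in. Past both thresholds by edgeR there was 1 gene with ACs in B6 (lower), beside 4.47% of all genes tested, and 0 with ACs in SjSS, beside 12.9%. For ACs in SjSS, 11 had an unadjusted p under 0.05 and DESeq2 called 1. With CpG there were 2 in B6 (1 higher, 1 lower), beside 12.7%, and 1 in SjSS (higher), beside 9.26%. At an adjusted p under 0.05 and any fold, the counts were 5 higher and 4 lower with ACs in B6 (38.3% of all genes tested), 5 and 6 with ACs in SjSS (58%), 7 and 3 with CpG in B6 (57.9%) and 7 and 3 with CpG in SjSS (54.2%). The median log2 fold changes of the list were -0.05, 0.07, 0.06 and -0.02 in these comparisons, beside 0.00, -0.02, -0.04 and -0.01 for all genes tested.

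*Slc39a13*, which encodes the intracellular ZIP13, rose with CpG in both strains. Its mean went from 42.8 to 117 CPM in B6 (log2 fold change 1.45 ± 0.06, adjusted p = 3.32e-13) and from 41.9 to 116 CPM in SjSS BMDMs (1.46 ± 0.06, adjusted p = 4.56e-13). With ACs its log2 fold changes were 0.49 ± 0.06 and 0.50 ± 0.06. *Slc39a12* fell with ACs and CpG in B6 (-1.81 ± 0.51 and -1.37 ± 0.50, adjusted p = 0.00877 and 0.0248), on few reads, with 66 over the 3 control, 17 over the 3 AC treated and 21 over the 3 CpG treated B6 samples, and the CpG call was kept in 9 of 13 alternatives.

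The abundant ZIP genes *Slc39a1* and *Slc39a7* both rose with CpG in either strain, *Slc39a1* by 0.73 ± 0.05 in B6 and 0.56 ± 0.05 in SjSS BMDMs on the log2 scale. *Slc39a1* also rose with ACs, by 0.21 ± 0.05 in B6 and 0.78 ± 0.05 in SjSS BMDMs, and this difference between strains passed the test at any fold (interaction 0.58 ± 0.07, adjusted p = 3.8e-06). *Slc30a5*, a ZnT of the secretory pathway, fell with ACs in both strains (-0.24 ± 0.07 and -0.51 ± 0.07). *Slc30a9* rose with CpG in both strains (0.49 ± 0.05 and 0.32 ± 0.05). *Slc30a7* had log2 fold changes of 0.03 and -0.02 with CpG, and *Slc39a9* of 0.06 and -0.05, and neither passed the test there.

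A further 5 genes of the list, *Slc30a6*, *Slc39a2*, *Slc39a4*, *Slc39a8* and *Slc39a10*, were chosen after their values were seen. *Slc39a2*, the gene that DESeq2 called with ACs in SjSS BMDMs, stood at 1.29 ± 0.47 there (adjusted p = 0.0237 by edgeR) on 35 reads over the 3 control and 81 over the 3 AC treated samples, and its adjusted p was under 0.05 in 9 of 13 alternatives. *Slc30a6*, the partner of *Slc30a5* in the secretory pathway, rose in all 4 treatment comparisons, by 0.66 to 1.09 on the log2 scale. *Slc39a4*, a cell surface importer, rose with CpG by 1.08 ± 0.21 in B6 and 0.77 ± 0.21 in SjSS BMDMs. *Slc39a8*, the importer closest in family to *Slc39a14*, fell with CpG by 1.05 and 0.77 on the log2 scale, where *Slc39a14* was higher. *Slc39a10* fell with ACs by 0.38 and 0.75 on the log2 scale.

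**Figure D4:**
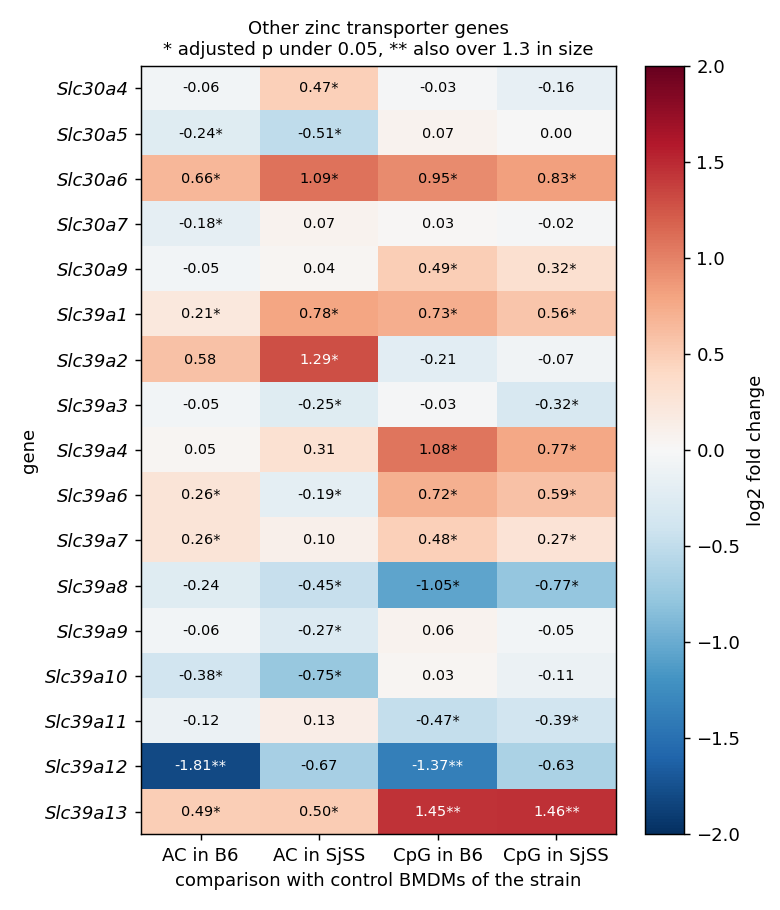
Log2 fold change against control BMDMs of the same strain (colour and printed value) for the 17 other zinc genes in the table (rows) in the 4 treatment comparisons (columns), with 1 asterisk for an adjusted p under 0.05 and 2 where it was also past 1.3 in size. *Slc39a13* is past both thresholds with CpG in both strains, at 1.45 and 1.46, and most other values are under 1 in size.

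Between the strains, list counts at any fold were 2 higher and 1 lower in SjSS without treatment (19.6% of all genes), 8 and 3 with ACs (49.4%) and 2 and 1 with CpG (19.7%). The interaction of strain and AC passed at any fold for 4 genes higher and 4 lower (37.9%). Past both thresholds it counted 0 (10 at an unadjusted p under 0.05, 0 by DESeq2), beside 7.52% of all genes. For the interaction of strain and CpG edgeR passed 0 at any fold (4 at an unadjusted p under 0.05, and DESeq2 passed 1 at any fold), beside 5.86% of all genes. Past both thresholds, 1 gene was higher in SjSS with ACs, beside 8.94% of all genes. It was *Slc39a12* (1.43 ± 0.53, adjusted p = 0.0336, means of 0.315 and 0.113 CPM), a call kept in 7 of 13 alternatives. Without treatment and with CpG the count was 0, beside 2.01% and 2.61% of all genes, with 3 and 6 at an unadjusted p under 0.05 and 0 by DESeq2.

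Known MTF-1 targets outside the zinc genes, 4 in all, were read beside them. At any fold 3 were higher and 0 lower with ACs in B6, beside 38.3% of all genes tested, and 2 and 0 with ACs in SjSS BMDMs, beside 58%. *Gclc*, the catalytic subunit of the enzyme that begins glutathione synthesis, rose with ACs in B6 (1.10 ± 0.10, adjusted p = 5.73e-08), stood at 0.06 ± 0.10 in SjSS BMDMs, and its interaction passed at any fold (-1.04 ± 0.14, adjusted p = 7.99e-06). *Selenow*, a selenoprotein gene, rose by 0.46 ± 0.08 in B6 and 1.12 ± 0.08 in SjSS BMDMs with ACs. *Csrp1* rose with ACs by 0.36 and 0.84 and fell with CpG by 0.35 and 0.57 on the log2 scale. *Ndrg1* rose with CpG (1.97 ± 0.16 in B6, adjusted p = 2.89e-09, and 1.67 ± 0.16 in SjSS, adjusted p = 3.72e-08) and was at 0.37 ± 0.16 and 0.13 ± 0.16 with ACs, which did not pass.

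The genes with the pattern most like each member were found by Pearson's r of log2 CPM over the 18 samples, which share their libraries and 6 groups, and are named as a description. They were *Topors* (r = 0.957) and *Bcr* (0.929) for *Mt1*, before a row whose name had been turned into a date. For *Mt2* they were *Fbxo30* (0.940), *Bcr* (0.933) and *Dnajc8* (0.933). For *Slc30a1* they were *D5Ertd579e* (0.984), *Arl6ip1* (0.982) and *Slc38a1* (0.975), for *Slc39a14* *Pmpca* (0.985), *Spata13* (0.983) and the copper importer gene *Slc31a1* (0.980), and for *Mtf1* *Sltm* (0.918), *Eif5b* (0.916) and *Heatr3* (0.915). These genes moved over smaller ranges in several cases, *Topors* from a mean of 49.9 to 74.7 CPM while *Mt1* went from 60.5 to 342 CPM. Among the members themselves r was 0.959 between *Mt1* and *Mt2*, 0.776 between *Mt1* and *Slc30a1* and 0.805 between *Mtf1* and *Slc39a14*.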

How the data were processed

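RNA was sequenced from 18 BMDM samples in 6 groups of 3, assigned by their labels. The authors used STAR to align to mm10 and the E/M tool of Partek to count, and the deposited values are estimated counts per gene, not normalized, of which 41.1% were not whole (tolerance 1e-06). Before testing, each was rounded to a whole number. Reads shared by similar genes are divided by estimation, which bears on *Mt1* and *Mt2*. *Selenow* is listed in the table under its older symbol *Sepw1*.

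With filterByExpr keeping 15789 genes and TMM as the scaling, group means were fitted over all 18 samples together in R 4.3.3 with edgeR 4.0.16 and limma 3.58.1. This quasi-likelihood test replaced the authors' DESeq2, which was run as an alternative (DESeq2 1.42.0), with Benjamini-Hochberg adjustment over all genes in each of 9 comparisons. A call needs both a log2 fold change above 1.3 in size and an adjusted p under 0.05. An SE is the log2 fold change divided by the square root of F. Replicate samples differed by more than sampling noise (chi-square per gene 8.11 to 33.6). P-values measure the spread between these samples. Similar genes were ranked on log2 CPM with a prior count of 2. Python 3.11.15 with numpy 2.4.6, pandas 2.3.3 and matplotlib 3.10.9 wrote the tables and drew the figures, and the fit was tested on simulated data. Promoters are from RefSeq. Other alternatives were DESeq2's size factors, other low-count filters, fits of the compared groups only, no fold threshold, a replicate block, each sample left out and, chosen after seeing the data, library totals in place of TMM.

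The 5 genes and all lists were chosen with earlier results of these data known. Named from the other lists were called genes, the most abundant zinc genes and cell type markers. All 4 MTF-1 targets were also named, though *Gclc*, *Selenow* and *Csrp1* were not called in any comparison. The copper gene *Atp7a* was named and not called either. Others are marked as chosen after their values were seen.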

Additional observations from a re-analysis of the deposited data

Results flagged for a closer look

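Among the genes read beside the zinc genes, 3 differed between strains in their response to ACs past both thresholds, by the edgeR interaction test over all genes. Of all genes tested, 7.52% did so. *Sco2*, a copper chaperone of cytochrome oxidase, had an SjSS response minus B6 response of -1.33 ± 0.26 on the log2 scale (adjusted p = 0.000454), and rose in B6 while it fell in SjSS BMDMs. It was past both thresholds in 13 of 19 alternatives, with values from -1.67 to -1.19. *Ddit4*, a stress-induced inhibitor of mTOR signaling, gave -1.40 ± 0.26 (adjusted p = 0.000338), past both thresholds in 17 of 19 alternatives. *Tsc22d3*, which encodes the glucocorticoid-induced GILZ, gave -1.51 ± 0.15 (adjusted p = 1.39e-07), past both thresholds in all 19.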

How the results depend on the processing

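For the list of other zinc genes, dropping the fold threshold gave 9 and 11 calls with ACs in B6 and SjSS, 10 and 10 with CpG, 3, 11 and 3 between strains (untreated, AC, CpG) and 8 for the difference between AC responses. With ACs in SjSS, where the count was 0, DESeq2's test, its size factors and the fit with the replicate block each gave 1. Library totals gave 1 with CpG in B6 and 0 for the strains with ACs, and fits of the compared groups only gave 0 for the latter. Leaving out 1 sample gave 0 to 1 with ACs in SjSS (1 without control 2, control 3 or AC 3 of SjSS), 1 to 3 with CpG in B6 and 0 to 1 for the strains with ACs (0 without AC 3 of B6, AC 1 or AC 3 of SjSS). The cause was not tested.

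Replicate numbers were not taken as pairs. Samples of a strain with the same number had deviations that correlated at 0.0198 to 0.264, over 0.1 in 9 of 18 pairs. With different numbers the range was -0.252 to 0.0745, over 0.1 in 0 of 36 pairs. Of 18 samples, 17 correlated best with their own number, a hint of pairing from the data. The replicate block changed no count of the 5 genes.

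With library totals the median of all genes stood at -0.43 for ACs in SjSS, against -0.02 with TMM, and the 5 genes moved with it. With ACs in SjSS *Mt1* was then at 1.19, under the threshold of 1.3, *Slc30a1* at 2.14 and *Mtf1* at -0.39. The interaction of strain and AC was -0.35 for *Mt1*, -0.24 for *Mt2* and -0.02 for *Slc39a14*, where the median gene stood at -0.35, and 1.94 for *Slc30a1*, which ranged from 1.94 to 2.36 over 19 alternatives. Without the first CpG treated B6 sample the strain difference with CpG was 0.07 for *Mt1* and 0.01 for *Mt2*, and the interaction with CpG was 0.52 and 0.87. *Slc39a14* with CpG in SjSS ranged from 1.16 to 1.38, on both sides of 1.3.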

Other observations

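Copper is handled by some of the same proteins as zinc, and 10 of 11 copper genes were tested. *Slc31a2*, a relative of the copper importer *Slc31a1*, rose with ACs in B6 (log2 fold change 0.78 ± 0.06) and SjSS BMDMs (1.46 ± 0.06, adjusted p = 3.13e-13 by edgeR) and with CpG (1.75 ± 0.06 and 1.90 ± 0.06). *Slc31a1* rose with CpG by 1.38 ± 0.06 in B6 and 1.23 ± 0.06 in SjSS BMDMs and with ACs by 0.51 and 0.89 on the log2 scale. At any fold 5 of the 10 were higher and 0 lower with ACs in B6 (38.3% of all genes tested), 6 and 2 with ACs in SjSS (58%), 4 and 1 with CpG in B6 (57.9%) and 5 and 2 with CpG in SjSS BMDMs (54.2%). *Atp7a*, a copper pump, fell with ACs in SjSS BMDMs by 0.34 on the log2 scale. The gene not tested was *Atp7b*.

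Of 7 genes of the oxidative stress response all 7 were higher at an adjusted p under 0.05 with ACs and with CpG in either strain, beside the same shares of all genes. *Hmox1*, the heme-degrading enzyme, rose with ACs by 2.43 ± 0.10 in B6 and 2.25 ± 0.10 in SjSS BMDMs, and *Slc7a11*, the cystine importer, by 1.76 ± 0.14 and 2.73 ± 0.14. *Txnrd1*, thioredoxin reductase, rose by 1.09 ± 0.08 and 1.51 ± 0.08. With CpG *Slc7a11* rose by 3.07 ± 0.15 in B6 and 2.27 ± 0.14 in SjSS BMDMs.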
